A study of Mus musculus with 8 samples.

Results

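The 6 genes described here, Bdh1, Acat1, Oxct1, Acads, Slc16a1 and Slc5a8, carry the handling of ketone bodies and butyrate in the mouse intestine. They were chosen as a list of symbols, matched to the Ensembl identifiers of the count tables, and all 6 were found among the 45706 genes listed. The RNA came from fresh crypts of wild type C57BL/6N mice, taken from the small intestine (SI) and from the colon (COL), and no treatment is stated. Each of 4 donor mice gave 1 SI and 1 COL library, and the libraries carry the mouse number here (SI1 to SI4, COL1 to COL4). Mice 1 and 4 were female and mice 2 and 3 male, and the labels give the last mouse the donor number 5. The age of the mice is not given in the sources used here. The question put to these libraries was how the 2 tissues differ before any oncogene is expressed.

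Ketone bodies and butyrate share much of their chemistry. Butyrate, a short-chain fatty acid made by gut bacteria from fiber, is a main fuel of the colonic epithelium. It enters the cell through monocarboxylate carriers, is bound to coenzyme A and is oxidized in the mitochondrion, where its first oxidation step is carried out by the short-chain acyl-CoA dehydrogenase. Acetoacetate and 3-hydroxybutyrate, the main ketone bodies, are made from acetyl-CoA and are converted back to acetyl-CoA in the tissues that burn them, so that an epithelial cell may in principle make them, use them or pass them on.

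Among the members, Slc16a1 encodes MCT1, a proton-coupled carrier of lactate, butyrate and ketone bodies, and Slc5a8 encodes SMCT1, a sodium-coupled carrier of the same kinds of substrate. Acads encodes the short-chain acyl-CoA dehydrogenase. Bdh1 encodes the mitochondrial enzyme that interconverts 3-hydroxybutyrate and acetoacetate. Oxct1 encodes the transferase that activates acetoacetate for use, and Acat1 encodes the mitochondrial thiolase that splits or joins acetoacetyl-CoA.

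Promoter windows are shown for Acads and Slc16a1, the members that passed the test and whose levels moved most closely together, and for Slc5a8, the carrier whose levels varied most. They are RefSeq sequences of GRCm38.p6, read 5′ to 3′ on the strand of the gene, from 250 bases before the annotated start to 50 bases after it. Capitals mark matches to the GC box GGGCGG, which reads CCGCCC where it lies on the opposite strand, and, in Slc16a1, to the E box CACGTG as well.
Acads, chr5:115119297-115119596, minus strand: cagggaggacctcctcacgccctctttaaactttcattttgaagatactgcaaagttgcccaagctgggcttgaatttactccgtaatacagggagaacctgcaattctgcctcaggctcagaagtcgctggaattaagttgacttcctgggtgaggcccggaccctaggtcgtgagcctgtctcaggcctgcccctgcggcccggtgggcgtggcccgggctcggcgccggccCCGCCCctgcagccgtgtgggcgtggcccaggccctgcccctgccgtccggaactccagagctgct
Slc16a1, chr3:104638414-104638713, plus strand: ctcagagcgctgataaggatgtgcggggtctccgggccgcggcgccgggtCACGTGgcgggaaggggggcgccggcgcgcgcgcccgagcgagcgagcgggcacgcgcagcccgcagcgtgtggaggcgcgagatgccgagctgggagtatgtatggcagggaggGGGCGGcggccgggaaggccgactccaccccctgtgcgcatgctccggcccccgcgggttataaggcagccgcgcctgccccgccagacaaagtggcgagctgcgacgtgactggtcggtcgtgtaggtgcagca
Slc5a8, chr10:88885742-88886041, plus strand: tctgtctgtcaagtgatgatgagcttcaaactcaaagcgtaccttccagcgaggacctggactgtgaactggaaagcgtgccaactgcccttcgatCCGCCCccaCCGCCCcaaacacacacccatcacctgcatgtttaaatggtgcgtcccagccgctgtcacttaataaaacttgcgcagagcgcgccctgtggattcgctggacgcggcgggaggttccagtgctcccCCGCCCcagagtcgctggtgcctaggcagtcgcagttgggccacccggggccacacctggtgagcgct
The Acads window held 1 GC box, the Slc16a1 window 1 GC box and 1 E box, and the Slc5a8 window 3 GC boxes. A GC box on either strand occurred in 35.7% of the 32851 mouse promoter windows of this length and the E box in 7.15%. The 3 windows were richer in G and C than the median window, with 62.7% in Acads, 73.7% in Slc16a1 and 60.7% in Slc5a8 against 52.7%. The Slc16a1 window held 42 CpG dinucleotides, the Slc5a8 window 20 and the Acads window 17, where the median window held 7. Windows were found for 5 of the 6 members, and the CCAAT box, the TATAAA box and the nuclear receptor motif AGGTCA were not matched in any of them. Among the remaining members, 1 of the 2 windows of Bdh1 held a GC box and the window of Oxct1 held none of the motifs. These matches are letters in a window, and no binding was measured.

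The libraries held between 15969428 and 32908060 counts. The share of counts from mitochondrially encoded genes ran from 4.83% to 7.35% in SI1, SI4, COL3 and COL4 and from 22.7% to 50.8% in SI2, SI3, COL1 and COL2. Levels are given as CPM, counts relative to the library total, after TMM scaling, a scaling on the trimmed mean of the log ratios between libraries. Summed markers of the epithelium ran from 7834 to 12198 CPM in SI and from 4164 to 12702 CPM in COL. Of the 6, Vil1 was called higher in SI (9.53-fold, edgeR adjusted p = 0.00038) and Krt18 higher in COL (2.64-fold, edgeR adjusted p = 0.00949), and the others were not called. Markers of immune cells summed to at most 95.8 CPM and those of stroma, muscle and vessel to at most 19.6 CPM. Of these, only Cd3e was called higher in SI and only Pecam1 higher in COL. The red blood cell genes Hba-a1 and Hbb-bs, which summed to at most 32.0 CPM, were both called higher in COL. Differentiated enterocyte markers reached 35683 to 75744 CPM in SI against 214 to 876 CPM in COL, with 7 of 7 called higher in SI. Differentiated colonocyte markers ran from 5219 to 33371 CPM in COL and from 5088 to 11422 CPM in SI, where they were mostly Krt20. Of the 5, Car1, Car4 and Aqp8 were called higher in COL, Krt20 was called higher in SI (8.35-fold, adjusted p = 0.00653) and Slc26a3 was not called. No marker of these lists was at 0 in every library. Stem cell markers summed to 30.7 CPM in SI1, the lowest of the SI libraries, which ranged up to 310 CPM, and to between 39.0 and 54.4 CPM in COL. The sums of SI2 to SI4 were mostly Olfm4 (161, 254 and 180 CPM), the only 1 of these 5 markers called. Lgr5 and Ascl2, not called, were higher in COL in 4 of 4 mice. Axin2 and Smoc2, also not called, were higher in SI in 3 and 2 mice. Proliferation markers were also lowest in SI1, at 69.0 CPM. Goblet markers summed to 2764 to 10741 CPM in SI and to 11916 to 20961 CPM in COL, where they were mostly Muc2. Of the 6, Muc2 and Spink4 were called higher in COL and the others were not called. Paneth markers summed to 564 to 3965 CPM in SI and to 17.9 to 83.0 CPM in COL, with 5 of 6 called higher in SI. In such bulk libraries, fewer cells of a type and less RNA per cell cannot be told apart. The comparison of the tissues used edgeR's quasi-likelihood test over 14491 genes, of which 28.4% were called at an adjusted p below 0.05, 15.5% as higher in SI and 12.9% as higher in COL. Log2 fold changes below are SI over COL, so that negative values mean a higher level in COL.

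All 6 members passed the filter on low counts. Of these, 2 passed the test, Acads and Slc16a1, and both were higher in COL crypts. Acads, the butyrate oxidation enzyme, was 3.38-fold and Slc16a1, the proton-coupled carrier, 1.98-fold higher in the COL mean. The other 4 members did not pass the test, and their estimates went in both directions. The share of members called in either direction, 2 of 6 or 33.3%, was near the 28.4% of all genes called. Both calls were in favor of COL, the direction of 12.9% of all genes. The CPM ranges of SI and COL did not overlap for 2 members, Acat1 and Slc16a1, and did not overlap for 33.5% of all genes tested. The median log2 fold change was -0.46 over the members and -0.09 over all genes tested.

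**Figure D1:**
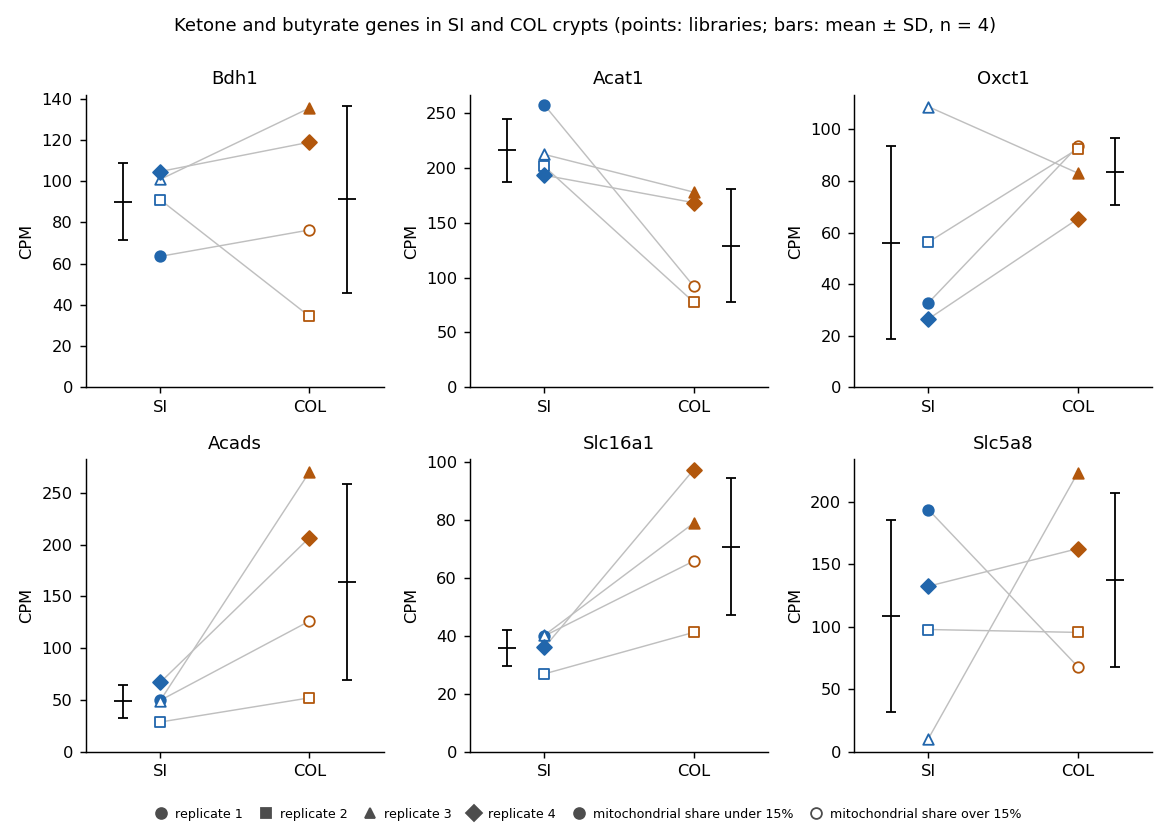
Levels of the 6 members in CPM after TMM scaling (linear axes from 0) in the SI and COL libraries. Each point is a library, gray lines join libraries of 1 mouse (replicate), open symbols mark a mitochondrial share over 15%, and bars show mean ± SD of 4 libraries. Acads and Slc16a1 lie higher in COL in each mouse, while Slc5a8 in SI runs from 10.5 to 193.5 CPM.

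The oxidation enzyme Acads (ENSMUSG00000029545, mm10 chr5:115110299-115119346, minus strand) had 49.5, 28.6, 49.2 and 66.8 CPM in SI1 to SI4. In COL1 to COL4 it had 126.1, 52.0, 270.2 and 206.8 CPM. COL was the higher tissue in each of the 4 mice, although COL2 lay below SI4, so that the ranges overlapped. The mean of the 4 libraries was 48.5 ± 15.6 CPM for SI and 163.8 ± 95.01 CPM for COL (± SD here and below), and the log2 fold change was -1.76 (SE 0.47, 95% confidence interval -2.79 to -0.72, edgeR adjusted p = 0.0159). The level varied 5.20-fold among the COL libraries. Acads was called with any 1 library left out, with log2 fold changes from -2.01 to -1.40. Its deficit in SI was seen among the libraries of high mitochondrial share (a log2 difference of -1.11) and among those of low share (-2.04). The test against a log2 change of 1 did not call it (adjusted p = 0.116).

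The proton-coupled carrier Slc16a1 (ENSMUSG00000032902, chr3:104638668-104658462, plus strand) had 39.9, 26.8, 40.2 and 35.9 CPM in SI1 to SI4 and 65.7, 41.1, 78.9 and 97.3 CPM in COL1 to COL4. The lowest COL library, COL2, lay just above the highest SI library, and COL was higher in each mouse. Means of 35.7 ± 6.23 CPM (SI) and 70.8 ± 23.6 CPM (COL) gave a log2 fold change of -0.99 (SE 0.30, 95% confidence interval -1.64 to -0.33, edgeR adjusted p = 0.0280). The difference held its direction among the libraries of high mitochondrial share (-0.66) and of low share (-1.21). The call rested on the full set of libraries: with COL2 left out the adjusted p was 0.00685, while leaving out any of the other 7 libraries gave an adjusted p of 0.0550 to 0.0919. The log2 fold change itself stayed between -1.15 and -0.79.

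The sodium-coupled carrier Slc5a8 (ENSMUSG00000020062, chr10:88885992-88929515, plus strand) had 193.5, 97.6, 10.5 and 132.3 CPM in SI1 to SI4. It had 68.0, 95.3, 223.0 and 162.3 CPM in COL1 to COL4. SI3 stood far below the other SI libraries, with 207 counts, and the ranges of the tissues overlapped widely. The level was higher in SI in 2 mice and higher in COL in the other 2. The means of 108.5 ± 76.4 and 137.2 ± 69.6 CPM gave a log2 fold change of -0.34 (SE 0.66, 95% confidence interval -1.79 to 1.11, edgeR adjusted p = 0.743). The interval leaves room for differences of more than 1 log2 unit in either direction, so these libraries do not show that the tissues have like levels. Slc5a8 varied 18.4-fold among the SI libraries, more than any other member in either tissue.

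Acat1 (ENSMUSG00000032047, chr9:53580522-53610382, minus strand), the thiolase at the end of both ketone body use and butyrate oxidation, had 257.3, 201.3, 212.3 and 193.3 CPM in SI1 to SI4 and 92.1, 77.6, 177.9 and 168.2 CPM in COL1 to COL4. Every SI library lay above every COL library, and SI was higher in 4 of 4 mice. With means of 216.0 ± 28.6 and 129.0 ± 51.4 CPM, the log2 fold change was 0.74 (SE 0.34, 95% confidence interval 0.007 to 1.48) and missed the threshold after adjustment over all genes (edgeR adjusted p = 0.122). Leaving out each library in turn gave 0.59 to 0.94 with no call. The difference was 1.29 among the libraries of high mitochondrial share and 0.37 among those of low share, and it passed the test when that share entered the fit as a covariate (0.68, adjusted p = 0.0240).

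Oxct1 (ENSMUSG00000022186, chr15:4026383-4155344, plus strand), the committing enzyme of ketone body use, had 32.8, 56.3, 108.8 and 26.5 CPM in SI1 to SI4 and 93.5, 92.5, 83.1 and 65.3 CPM in COL1 to COL4. COL was higher in 3 of 4 mice, the exception being mouse 3, whose SI library was the highest of all 8. The means were 56.1 ± 37.4 and 83.6 ± 13.0 CPM (log2 fold change -0.58, SE 0.41, 95% confidence interval -1.48 to 0.33, edgeR adjusted p = 0.328). SI3 decided this value, since without it the estimate was a log2 fold change of -1.09 (adjusted p = 0.0389). Of the 50-base stretches of the longest Oxct1 transcript, 12.05% also occur in the antisense gene BC037032, and use of the strand in counting is not given in the sources used here, so reads of that overlap cannot be assigned with certainty.

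Bdh1 (ENSMUSG00000046598, chr16:31422280-31458901, plus strand), the 3-hydroxybutyrate dehydrogenase, had 63.5, 90.9, 100.8 and 104.6 CPM in SI1 to SI4. In COL1 to COL4 it had 76.3, 34.4, 135.4 and 118.8 CPM. The COL libraries lay on both sides of the SI libraries, and COL was higher in 3 of 4 mice. The means of 89.9 ± 18.6 and 91.2 ± 45.3 CPM differed by a log2 fold change of -0.02 (SE 0.39, 95% confidence interval -0.88 to 0.84, edgeR adjusted p = 0.974). The difference was 0.90 among the libraries of high mitochondrial share and -0.64 among those of low share, opposite in sign, and the sign of the pooled value changed between tests. The antisense gene Gm15743 shares 4.72% of the 50-base stretches of Bdh1.

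**Figure D2:**
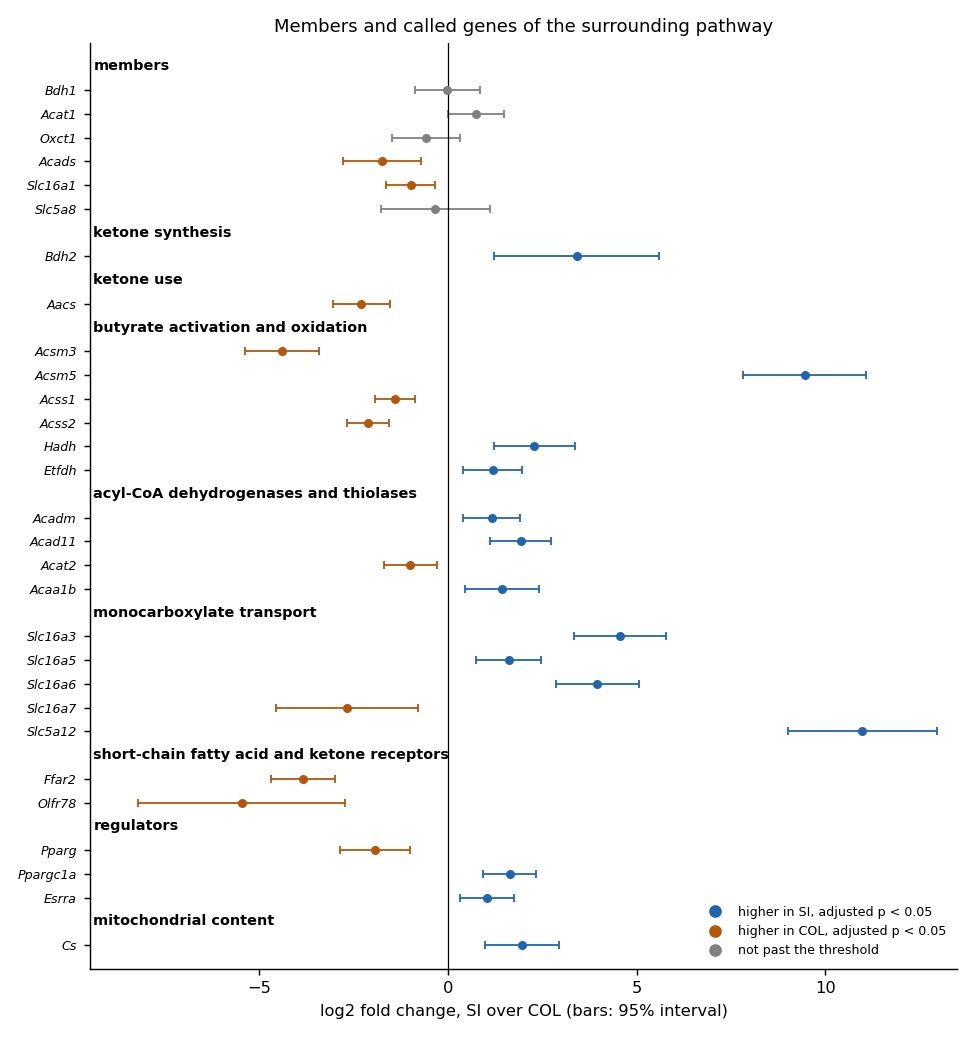
Log2 fold change of SI over COL (x axis) for each member and for the 23 called pathway genes described further on, grouped by role, with bars for the 95% confidence interval from edgeR. Blue marks genes called higher in SI, brown genes called higher in COL and gray the members not called. The intervals of Acads and Slc16a1 lie wholly below 0, that of Acat1 begins at 0.007, and those of Bdh1, Oxct1 and Slc5a8 cross 0.

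To compare levels between genes, CPM were divided by the exon length of the gene, that of all its annotated exons joined. In SI, Acat1 was the most abundant member, with 57.5 ± 7.62 CPM per kb and a lowest library (51.4) above every library of the other members. Bdh1 (23.1 ± 4.78 CPM per kb), Acads (21.4 ± 6.89), Slc5a8 (20.3 ± 14.3), Oxct1 (15.2 ± 10.1) and Slc16a1 (8.07 ± 1.41) followed, and each overlapped its neighbor in this order. In COL the order began with Acads at 72.2 ± 41.9 CPM per kb, which was above Acat1 (34.3 ± 13.7) in 4 of 4 libraries, although the ranges of the 2 genes overlapped. Slc5a8 (25.7 ± 13.1 CPM per kb), Bdh1 (23.5 ± 11.7) and Oxct1 (22.6 ± 3.52) could not be ordered beyond their spread, and Slc16a1 (15.99 ± 5.33) was again the lowest mean.

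Within COL, most members were lower in the libraries of high mitochondrial share. COL3 and COL4, of low share, lay above COL1 and COL2, of high share, for 5 of 6 members (Bdh1, Acat1, Acads, Slc16a1 and Slc5a8), a pattern shown by 34.6% of all genes tested. The log2 difference between low- and high-share COL libraries was 1.54 for Acads, 1.31 for Bdh1, 1.24 for Slc5a8, 1.03 for Acat1 and 0.75 for Slc16a1, and -0.34 for Oxct1, against a median of 0.11 over all genes. In SI the same comparison gave 2.31 for Slc5a8, 0.61 for Acads and -1.41 for Oxct1, with the other 3 members between -0.23 and 0.21, and here the low-share libraries were those of the female mice. The colonocyte marker Car1 had 5998, 2632, 30001 and 15636 CPM in COL1 to COL4, the same order of libraries as Acads, Acat1 and Bdh1. The other 4 colonocyte markers did not follow this order, since Aqp8 and Slc26a3 were highest in COL2 and Car4 and Krt20 were lowest in COL1. The part of the mitochondrial share or of the cell makeup in the members' values was not tested.

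**Figure D3:**
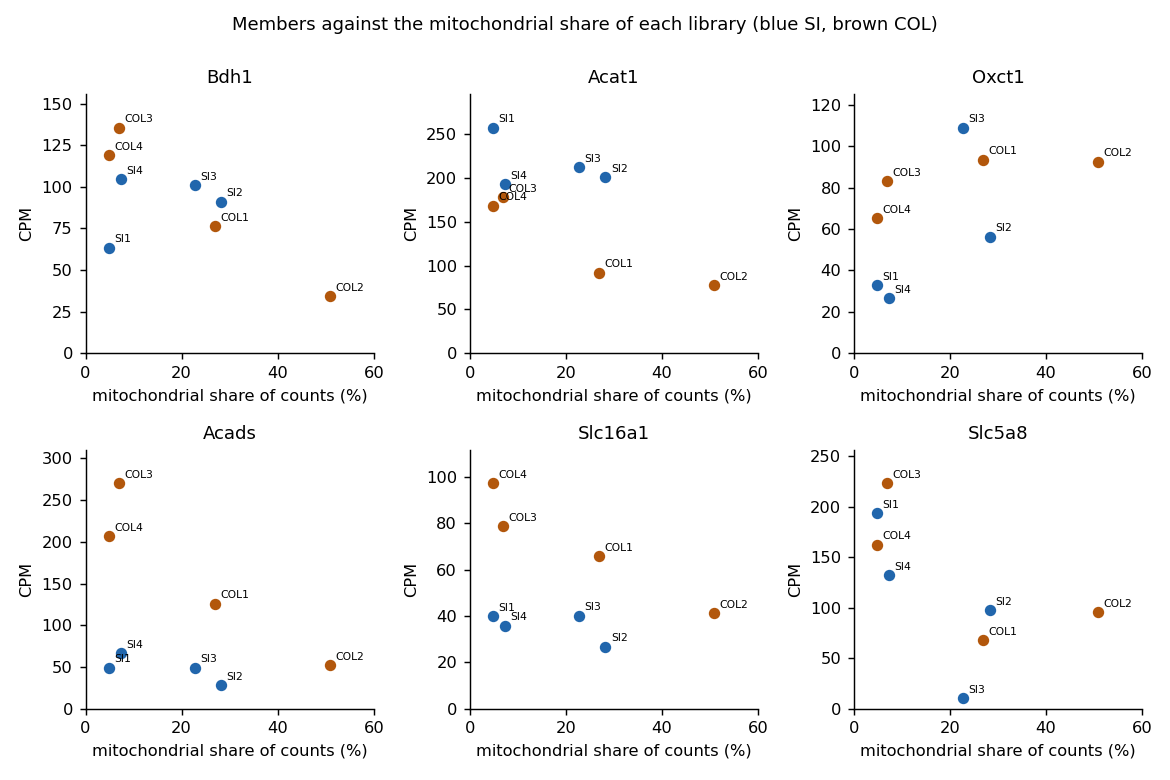
Level of each member in CPM after TMM scaling (linear axes from 0) against the percent of counts from mitochondrially encoded genes in the 8 libraries, with SI in blue and COL in brown. In COL, the libraries of 26.9% and 50.8% lie below those of 4.83% and 6.94% for every member other than Oxct1.

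Across the 8 libraries, log2 CPM of Acads and Slc16a1 ran most closely together of all pairs of members (Pearson r = 0.95). Bdh1 and Acat1 gave 0.58, while Acat1 and Oxct1 gave -0.53 and Oxct1 and Slc5a8 gave -0.52. These values describe 8 points that share tissue, mouse and depth. Among 10637 genes compared, the genes most like Acads were Trappc6a (0.99), Rida (0.99) and Glb1 (0.98), and those most like Slc16a1 were Polr2e (0.99), Sec11c (0.99) and Gstm5 (0.98). Sdhb, a subunit of succinate dehydrogenase, Maip1 and LTO1 were the most like Acat1, at 0.99 each. For Slc5a8 these were Fchsd1 (0.98), Rptor (0.95) and Il7 (0.94), for Bdh1 Foxred1 (0.96), Lrrc40 (0.96) and Ampd2 (0.95), and for Oxct1 Atp2b1 (0.96), Trit1 (0.95) and 2810402E24Rik (0.95).

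Of 63 further genes of ketone body and short-chain fatty acid metabolism, transport, sensing and control, 51 could be tested and 23 were called, 14 higher in SI and 9 higher in COL. This is 45.1% of those tested, beside 28.4% of all genes, for lists chosen with earlier results of these data known. No called gene changed direction under any of 19 alternative fits. Scaling by library size alone changed the split of calls to 7 higher in SI and 14 higher in COL, and it shifted the all-gene median from -0.09 to -0.82 on the log2 scale.

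Bdh2, a cytosolic relative of Bdh1, was called higher in SI at 7 to 116 counts a library against 0 to 14 (log2 fold change 3.41, edgeR adjusted p = 0.0239), a call lost without SI1, COL1 or COL4 (adjusted p up to 0.119). In ketone use beside Oxct1, only Aacs, the cytosolic acetoacetyl-CoA synthetase that feeds lipid synthesis, could be tested, and it was 4.92-fold higher in COL (26.1 ± 2.8 against 128.3 ± 52.9 CPM, log2 fold change -2.30, adjusted p = 0.000535).

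Activation and oxidation of short-chain acids gave 6 calls among 11 tested genes, 3 in each direction. Acsm3, a mitochondrial acyl-CoA synthetase of short-chain acids, was 21.3-fold higher in COL (log2 fold change -4.41, edgeR adjusted p = 4.11e-05), although 35.2% of its 50-base stretches are shared with the overlapping gene Eri2. Acss1 (log2 fold change -1.40, adjusted p = 0.00141) and Acss2 (log2 fold change -2.12, adjusted p = 0.00012), the mitochondrial and cytosolic acetyl-CoA synthetases, were also higher in COL. Acsm5, a relative of Acsm3, had 1507 counts over the 4 SI libraries and 3 over the 4 COL libraries, a ratio of 848 after allowing for library size (95% counting interval 289 to 4115). Hadh, the hydroxyacyl-CoA dehydrogenase that acts after Acads, was called higher in SI, at 1450 ± 325 against 297 ± 166 CPM (log2 fold change 2.29, adjusted p = 0.0046). Echs1, the hydratase between these enzymes, was at 170.0 CPM (SI) and 175.4 CPM (COL) (log2 fold change -0.05, adjusted p = 0.945). Etfdh, which passes the electrons of Acads to the respiratory chain, was higher in SI (log2 fold change 1.18, adjusted p = 0.0282), but not without SI1, SI4 or COL1 (adjusted p up to 0.0736) or under scaling by library size alone (adjusted p = 0.402). Etfa, a subunit of the flavoprotein before it, missed the threshold (log2 fold change 1.04, adjusted p = 0.083) but passed it with the mouse as a block (1.19, adjusted p = 0.0461). Etfa stayed without a call in 8 of 8 fits with a library left out and in 6 of the 11 other alternatives.

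Among other acyl-CoA dehydrogenases and thiolases, 3 of 14 tested genes were higher in SI and 1 in COL, with a median log2 fold change of 0.54. Acadm, the medium-chain counterpart of Acads, was higher in SI (208 ± 43.1 against 93.2 ± 38.5 CPM, log2 fold change 1.16, edgeR adjusted p = 0.0263), a direction opposite to that of the short-chain enzyme. Its call was lost without SI1, SI4 or COL1 (adjusted p up to 0.0816) and under scaling by library size alone (log2 fold change 0.38, adjusted p = 0.428). Acad11 was also higher in SI (log2 fold change 1.93, adjusted p = 0.0024). Acat2, the cytosolic thiolase, was higher in COL (log2 fold change -0.998, adjusted p = 0.0388), but not with the mouse as a block (adjusted p = 0.0523), nor in 5 of 8 fits with a library left out (without SI1, SI4, COL1, COL3 or COL4, adjusted p up to 0.118), and it shares 45.9% of its stretches with Acat3. Acaa1b, a peroxisomal thiolase called higher in SI (log2 fold change 1.44, adjusted p = 0.033), likewise lost its call with the block (adjusted p = 0.0571) and without any 1 library other than SI2 and COL3 (adjusted p up to 0.0975), and it shares 46.2% with Acaa1a.

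Of 7 further genes of monocarboxylate transport that could be tested, 4 were higher in SI and 1 in COL. Slc5a12, the low-affinity sodium-coupled relative of Slc5a8, had 4114 to 9841 counts in the SI libraries and 0, 0, 6 and 17 counts in COL1 to COL4 (log2 fold change 10.98, edgeR adjusted p = 1.45e-05). Slc16a3, which encodes the lactate exporter MCT4, was 23.5-fold higher in SI (46.1 ± 25.5 against 2.0 ± 0.8 CPM, adjusted p = 0.000128). Slc16a6 (log2 fold change 3.96, adjusted p = 0.000153, 24.2% of its stretches shared with Amz2) and Slc16a5 (log2 fold change 1.61, adjusted p = 0.00933) were higher in SI as well, the latter not under scaling by library size alone (adjusted p = 0.0992). Slc16a7, which encodes MCT2, was the carrier called higher in COL, at 1 to 27 counts in SI and 26 to 198 in COL (log2 fold change -2.68, adjusted p = 0.0355), a call kept only without SI2, SI3 or COL2 when a library was left out (adjusted p up to 0.0863 in the others). Bsg, the chaperone that takes MCT1 and MCT4 to the membrane, was at 588 ± 186 CPM (SI) and 303 ± 148 CPM (COL) (log2 fold change 0.96, adjusted p = 0.106).

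Of the receptors of short-chain fatty acids and ketone bodies, 3 of 6 could be tested and 2 were called, both higher in COL. Ffar2, a receptor of acetate, propionate and butyrate, was 14.4-fold higher in COL (4.8 ± 1.8 against 69.7 ± 25.8 CPM, log2 fold change -3.85, edgeR adjusted p = 3.88e-05). Olfr78 had 2 counts over the SI libraries and 11 to 61 in each COL library, a ratio of pooled counts of COL over SI, allowing for library size, of 47.1 (95% counting interval 12.8 to 392). Hcar2, a receptor of 3-hydroxybutyrate and butyrate, had too few counts to be tested.

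Among regulators, Pparg was higher in COL (14.7 ± 6.6 against 55.8 ± 28.7 CPM, log2 fold change -1.93, edgeR adjusted p = 0.00569). Ppargc1a, a coactivator of mitochondrial genes, was higher in SI (128 ± 16.9 against 41.4 ± 16.1 CPM, log2 fold change 1.63, adjusted p = 0.00293), as was the nuclear receptor gene Esrra (log2 fold change 1.03, adjusted p = 0.0325). The Esrra call held in only 2 of 8 fits with a library left out, those without SI1 or COL2 (adjusted p up to 0.0837 in the others). It held in 6 of the 11 other alternatives, and not under scaling by library size alone (log2 fold change 0.35, adjusted p = 0.347). Ppara, whose product drives ketone synthesis in liver, did not pass the test (log2 fold change 0.74, adjusted p = 0.272). Of 7 nuclear genes taken as a measure of mitochondrial content, 1 was called: Cs, the citrate synthase, which was higher in SI (1503 ± 350 against 386 ± 181 CPM, log2 fold change 1.96, adjusted p = 0.007), though not called under scaling by library size alone (adjusted p = 0.0719). Sdha, a subunit of succinate dehydrogenase, missed the threshold (log2 fold change 1.31, adjusted p = 0.0513) and passed it with the mouse as a block (1.51, adjusted p = 0.0441). Sdha stayed without a call in 6 of 8 fits with a library left out and in 5 of the 11 other alternatives.

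**Figure D4:**
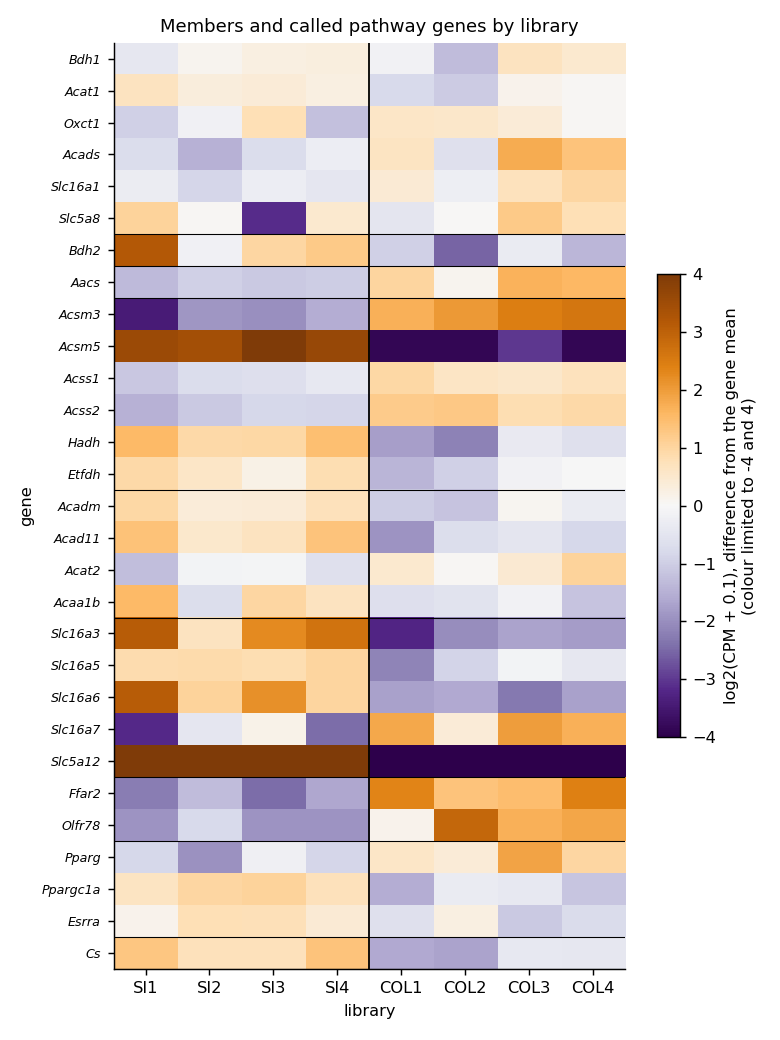
Log2(CPM + 0.1) of the 6 members and the 23 called pathway genes (rows, by role) in the 8 libraries (columns), as the difference from the mean of the gene, with the color limited to -4 and 4. Brown is above and purple below that mean. The pathway rows hold only genes called between SI and COL, so their split at the line between the tissues follows from that selection. All 6 members are shown, called or not, and they vary within a tissue as well, as in the low value of Slc5a8 in SI3.

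Ratios of counts within a library do not depend on the scaling between libraries, and 2 were compared by exact permutation tests over the 70 assignments of the libraries, whose smallest possible p is 0.0286. The ratio of Acads to Acadm was 0.189, 0.166, 0.283 and 0.297 in SI1 to SI4 and 1.92, 0.885, 1.91 and 1.93 in COL1 to COL4. Medium-chain counts exceeded short-chain counts in every SI library, and the reverse held in every COL library other than COL2. Divided by exon length, Acadm was still the higher gene in every SI library. On that scale Acads was higher in every COL library, with 22.9 against 15.01 CPM per kb in COL2. The order in COL2 depends on the length used. All annotated exons joined have 3913 bases for Acadm and 2269 for Acads. Their longest transcripts have 2047 and 2023 bases, and divided by these Acadm would be the higher gene in COL2. The mean log2 ratios of -2.14 ± 0.42 (SI) and 0.66 ± 0.56 (COL) gave a difference of -2.80 or 6.99-fold (two-sided exact permutation p = 0.0286), in the same direction in 4 of 4 mice. Adjusted over the 2 ratios this permutation p was 0.0571 and missed the threshold. A ratio at the smallest possible p could pass after that adjustment only if the other ratio reached the same p, so the adjusted p cannot decide here.

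The ratio of the sodium-coupled to the proton-coupled carrier, Slc5a8 to Slc16a1, was 4.85, 3.64, 0.262 and 3.68 in SI1 to SI4 and 1.03, 2.32, 2.83 and 1.67 in COL1 to COL4. SI1, SI2 and SI4 lay above every COL library and SI3 below every one. The mean log2 ratios of 1.02 ± 1.98 and 0.87 ± 0.63 differed by 0.15 (exact permutation p = 0.943, adjusted p = 0.943). Without SI3 the difference was 1.13, at the smallest p that 3 against 4 libraries allow (0.0571).

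**Figure D5:**
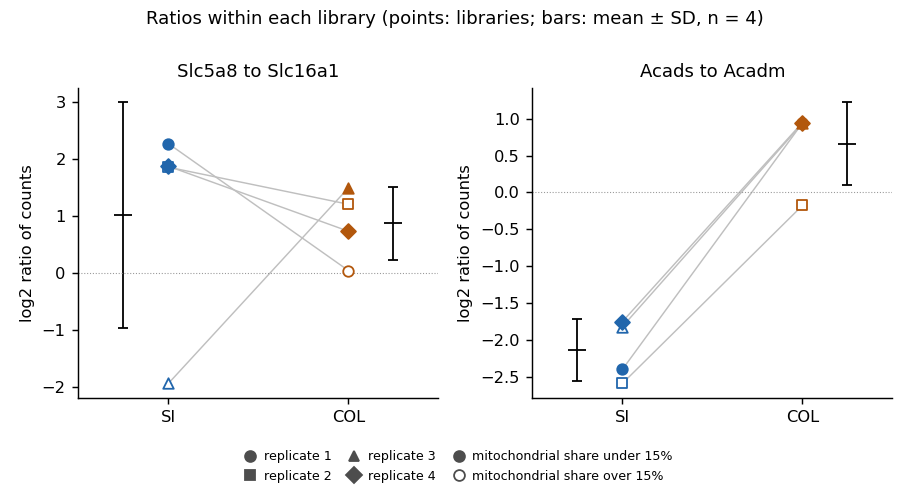
Log2 ratio of counts within each library for Slc5a8 to Slc16a1 and Acads to Acadm, with 1 point per library, gray lines joining libraries of 1 mouse, open symbols for a mitochondrial share over 15% and bars for mean ± SD of 4 libraries. SI and COL libraries do not overlap for Acads to Acadm, while SI3 lies apart from the other SI libraries for Slc5a8 to Slc16a1.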

How the data were processed

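The authors isolated crypts by EDTA chelation and sequenced total RNA as paired-end reads on a HiSeq4000. In their isolation protocol, given for organoid culture, villi are scraped off the SI. They deposited read counts per Ensembl gene for 8 libraries as whole numbers without normalization, and all columns were mapped to samples by their names. The submitters' processing notes name Trimmomatic 0.36, STAR 2.5.2b and the builds mm9 and mm10, of which the study's methods name mm10 for alignment. Which annotation was counted, and whether counting was stranded, is not given in the sources used here. Symbols, coordinates and exon lengths were taken from GENCODE vM21 (GRCm38), which held 45143 of the 45706 identifiers.

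Counts were tested with edgeR 4.0.16 in R 4.3.3 (quasi-likelihood test, TMM, filterByExpr by tissue with a minimum count of 10 and a total of 15, Benjamini-Hochberg over all 14491 genes tested, threshold 0.05), without a mouse term, since the study names none. CPM are counts over the TMM-scaled sum of the genes kept. Ratios of counts used a pseudocount of 0.5, and SDs are over the 4 libraries of a tissue. Likeness was Pearson's r of log2 CPM (prior count 2), over genes whose mean log2 CPM was 1 or more, and the 3 genes of highest r per member are named. Besides these and the members, the genes named are those of the pathway lists. Of the lists and ratios planned, 2 genes and 1 ratio are not reported here, so ratios were adjusted over the remaining 2. Shared sequence is the percent of 50-base stretches of the longest transcript that also occur in another gene on either strand. The mitochondrial share was split at 15%. Counting intervals are 95% and cover counting error only.

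Alternatives were DESeq2 1.42.0, limma-voom (limma 3.58.1), the mouse as a block in edgeR and in voom, scaling by library size alone, no filter, at least 10 counts in every library, removal of mitochondrially encoded genes or of the 18 genes over 1% of any library, the mitochondrial percent as covariate, a test against a log2 fold change of 1, and each library left out. The replicate numbers pair the libraries because same-numbered SI and COL libraries come from the same animal by the labels. Their deviations from the tissue means, over genes, correlated at -0.24, 0.39, -0.08 and 0.33. The scripts were tested on simulated data. The simulated counts varied less between libraries than the real ones and held no mouse effect. That test was thus a check of the code and not of the calls made here. The members and lists were chosen with earlier results of these data known.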

Additional observations from a re-analysis of the deposited data

Results flagged for a closer look

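Among 114 groups of 4 libraries screened for a single library far from the other 3, 6 were past Dixon's 95% limit for the gap as a share of the range, where chance gives 1 in 20, or 5.7. None of the 12 groups of the members was among them. Acsm5 in COL3 (gap 1.0) rested on 3 counts against 0 in the other COL libraries, and Olfr78 in SI2 (gap 1.0) on 2 counts against 0. Etfa in SI2 (gap 0.907) had 273 CPM against 386 to 400 CPM in the other SI libraries. Slc16a7 in COL2 (gap 0.832) had 1.62 CPM against 4.15 to 5.00 CPM. Tfam in COL2 (gap 0.898), the library with the highest mitochondrial share, had 13.4 CPM against 32.9 to 36.5 CPM. Tomm20 in COL1 (gap 0.867) had 11.2 CPM against 6.14 to 6.65 CPM.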

How the results depend on the processing

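With the mouse as a replicate block in edgeR, Acads (log2 fold change -1.57, adjusted p = 0.0087) and Slc16a1 (-0.94, adjusted p = 0.0293) kept their calls, Acat1 (0.83), Oxct1 (-0.79) and Slc5a8 (-0.52) stayed without one, and Bdh1 turned to 0.11. With the block, 25 pathway genes and 4072 genes in all were called, Acat2 and Acaa1b lost and Etfa, Acaa1a, Ppargc1b and Sdha gained a call, and no other call of a gene named here changed. In the paired sign-flip test, whose smallest p is 0.125, the ratio of Acads to Acadm differed by -2.80, at that p. Bdh1 was 0.20 in limma-voom and 0.21 in voom with the block, and Echs1 turned to 0.20, 0.13 (block in edgeR) and 0.23 (block in voom). Scaling by library size alone turned Acat1 to -0.042, Acaa2 to -0.10 and Ppara to -0.0401, and called Oxct1 (-1.30, adjusted p = 0.0338). It also called 5903 genes, of which 1115 were higher in SI and 4788 were higher in COL. Set against the median gene of that fit, the log2 fold changes were 0.01 for Bdh1, 0.78 for Acat1, -0.47 for Oxct1, -1.73 for Acads, -0.96 for Slc16a1 and -0.30 for Slc5a8. It also ended the calls of Bdh2 (adjusted p = 0.0529) and Acaa1b (adjusted p = 0.222). The mitochondrial covariate called Acat1 (0.68). Without a filter, Acadm was not called (adjusted p = 0.0578). The test against a log2 change of 1 called 2072 genes and 12 pathway genes (6 in SI, 6 in COL), and neither Acads (-1.76) nor Slc16a1 (-0.99). When libraries were left out one at a time, the calls ranged from 3167 to 4480 over all genes, against 4116 with all libraries, and from 16 to 25 over the pathway. The log2 fold changes ranged from -0.27 to 0.24 for Bdh1, 0.59 to 0.94 for Acat1, -1.09 to -0.37 for Oxct1, -2.01 to -1.40 for Acads, -1.15 to -0.79 for Slc16a1 and -0.76 to 0.0593 for Slc5a8. For Echs1 they ranged from -0.28 to 0.24. The ratio differences ranged from -0.27 to 1.13 for Slc5a8 to Slc16a1 and -3.08 to -2.65 for Acads to Acadm, where 3 against 4 libraries cannot give a p below 0.0571. Of the 23 called pathway genes, 14 were called in every test against no change, and none of the 432 values of these genes under an alternative changed sign. The causes of these changes were not tested. Counting error is large for Acsm5 in COL, with 3 counts over 4 libraries, and for Olfr78 in SI, with 2.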
